A study of Mus musculus with 40 samples.

Results

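The Hox genes were followed here over 40 arrays of mouse malignant gliomas, glioma-derived cell lines and normal cortex. The 38 genes were taken by name from the Hoxa, Hoxb, Hoxc and Hoxd clusters, by a rule that uses names and no measured value, and 33 of them had a probe set that names only that gene, out of 18193 genes with a value. These were 9 of 10 Hoxa genes, 9 of 10 Hoxb genes, 7 of 9 Hoxc genes and 8 of 9 Hoxd genes. Hoxa6, Hoxb8, Hoxc11, Hoxc12 and Hoxd4 had no such probe set and were left out.

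The study profiled gliomas that arose in mice whose p53 was lost or mutated in the neural lineage, cell lines grown from such gliomas, and normal cortex. Cre recombinase was driven by a human GFAP promoter, which is active in neural progenitors and glia, so the p53 alleles were recombined in that lineage and not in the whole animal. There were 2 early biopsy lines and 11 R172H cell lines (glioma lines in the plots), both from mice of genotype hGFAP-cre+;p53LSLR172H/floxE2-10, cultured at low passage as spheres with the growth factors EGF and bFGF. There were also 11 R172H gliomas of that genotype and 11 null gliomas of genotype hGFAP-cre+;p53floxE2-10/floxE2-10. The 5 samples of dorsal cortex were 3 Cre-positive cortices (hGFAP-cre+;p53floxE2-10/+) and 2 Cre-negative cortices (hGFAP-cre-;p53floxE5-6/floxE5-6), so every group carried engineered p53 alleles. Samples are named by the array number in their label. Nothing in the labels states that the samples of a group came from different animals, so p-values measure only the spread between these samples.

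Hox genes encode homeodomain transcription factors that give cells a position along the body axis. Within a cluster the genes lie in the order in which they are used, those at the 3' end (low numbers) in the hindbrain and those at the 5' end (high numbers) towards the tail, and genes with the same number in different clusters are paralogues. In the embryo the cortex forms ahead of the Hox-expressing territory, and Polycomb proteins keep Hox clusters silent where they are not used.

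Values are log2 signals after normalization over all arrays, where each unit is a factor of 2, and a gene's signal is set only against the same gene on other arrays. A signal was counted as present where it lay above the array's own median, which ran from 5.24 to 5.47. A gene is called raised on an array, as a description with no test, where it was present there and at least 2.0 log2 units above the highest cortex. The labels were checked against cell type markers, as mean log2 signals over each list. The neuron list (13 genes) lay at 4.95 and 4.96 in the early biopsy lines, between 4.47 and 6.32 in cell lines, at a median of 6.45 in R172H gliomas and 6.35 in null gliomas, and between 11.55 and 12.01 in cortices. The R172H glioma on array 58 (11.53) and the null gliomas on arrays 38 (11.25) and 45 (11.21) stood near cortex on that list. The study reports that histology found contaminating normal tissue in an R172H primary tumor. Array 58 is R172H glioma 7 in accession order, but the labels carry no tumor numbers and do not say which array that tumor is. All gliomas were kept in the main counts. The list of oligodendrocyte progenitors (9 genes) had group medians of 9.89 in cell lines, 11.13 in R172H gliomas, 10.94 in null gliomas and 8.0 in cortices, and was low in the R172H glioma on array 50 (6.16) and the null gliomas on arrays 36 (7.25) and 41 (8.66). Replicates of a group correlated at 0.853 or more. In bulk tissue, fewer cells of a type and less RNA per cell cannot be told apart.

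The clusters were used unequally. By the probe sets used, 15 of the 33 genes were present on no array, 15 on some and 3 (Hoxa5, Hoxa7 and Hoxc9) on all 40. By a second Hoxa5 probe set, described below, the cortices read at most 4.27 and Hoxa5 was present on none of them. Present on no array were 45.5% of the Hox genes and 23.2% of all genes, and present on all arrays were 9.09% of the Hox genes and 46.7% of all genes. On at least 1 of the 35 glioma and line arrays 15 Hox genes were raised, which is 45.5% against 16.5% of all genes. These were Hoxa2, Hoxa3, Hoxa4, Hoxa5, Hoxa7, Hoxa9 and Hoxa10, then Hoxb2 to Hoxb6, Hoxc8, Hoxd8 and Hoxd9. The lines alone raised 30.3% of the Hox genes (10% of all genes) and the gliomas alone 39.4% (14.3% of all genes).

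**Figure D1:**
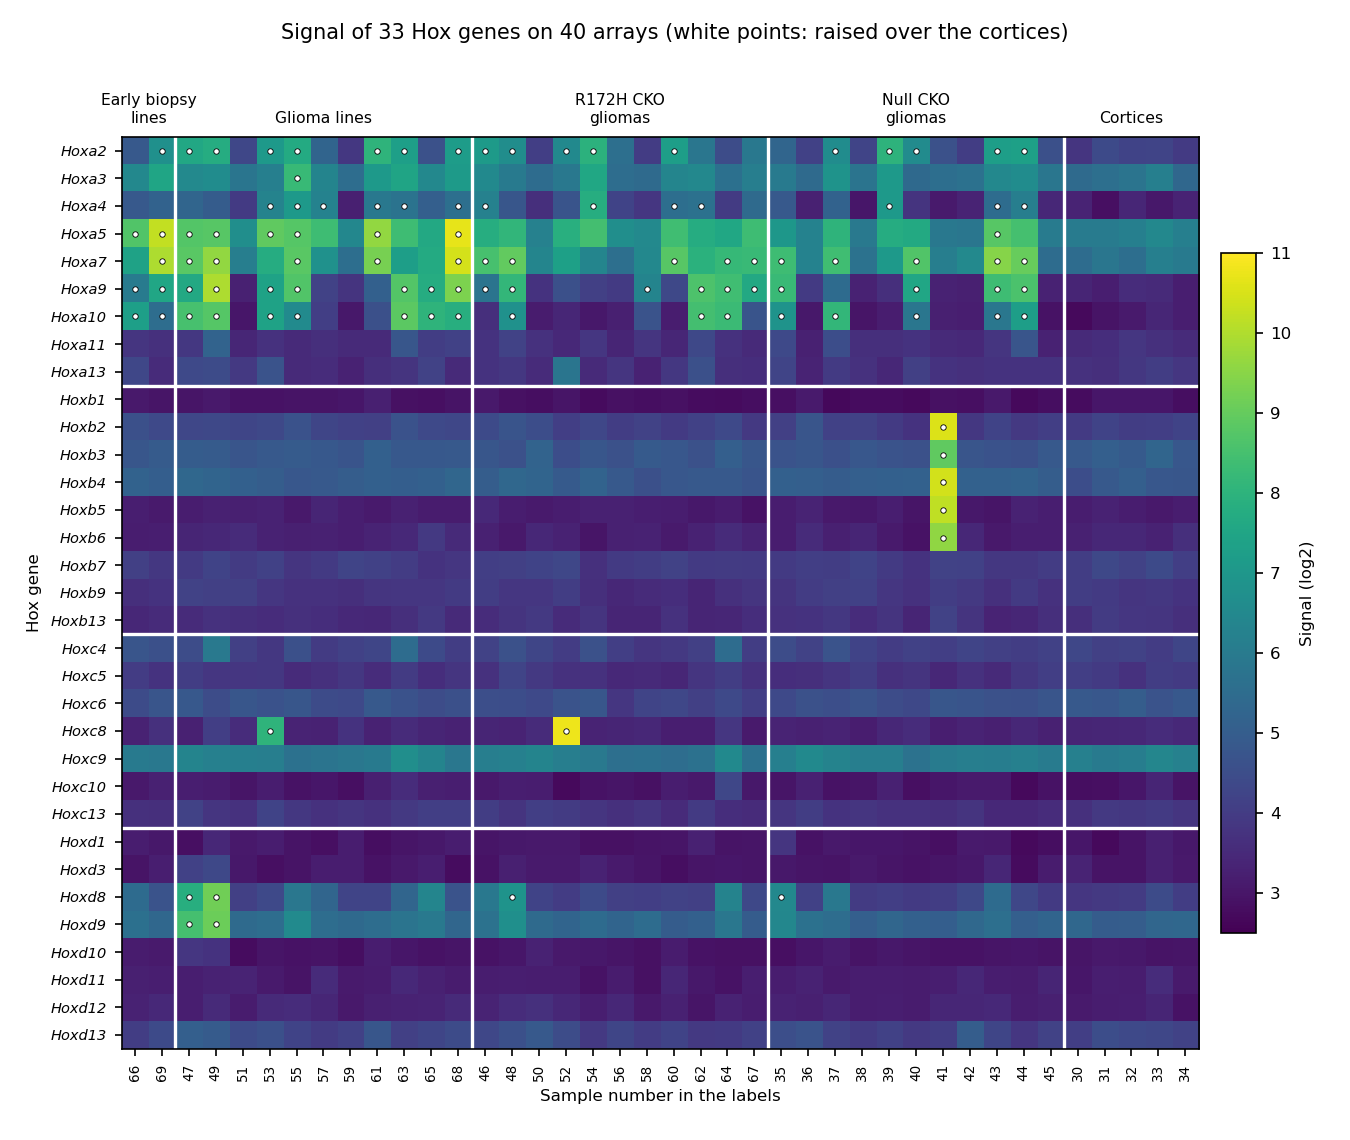
Log2 signal of the 33 Hox genes (rows, in cluster order) on each of the 40 arrays (columns, early biopsy lines, cell lines, R172H gliomas, null gliomas and cortices from left to right), with white points where a gene was raised. Raised signals fill much of the Hoxa block up to Hoxa10, stop before Hoxa11, and appear elsewhere on single arrays, as in the 5 Hoxb genes of null glioma 41.

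By the probe sets used, at least 1 Hoxa gene was raised on 26 of the 35 glioma and line arrays. These were 2 of 2 early biopsy lines, 9 of 11 cell lines, 9 of 11 R172H gliomas and 6 of 11 null gliomas. The arrays with none were cell lines 51 and 59, R172H gliomas 50 and 56, and null gliomas 36, 38, 41, 42 and 45. By a second Hoxa5 probe set, described below, cell line 51 and R172H glioma 56 had Hoxa5 raised as well. Counted over all 33 genes, the early biopsy lines had 3 and 5 raised members, the cell lines a median of 4 (range 0 to 7), the R172H gliomas 2 (0 to 5) and the null gliomas 3 (0 to 6). The share of all 18193 genes raised on an array was close in these groups, with medians of 3.58% in early biopsy lines, 3.88% in cell lines, 3.87% in R172H gliomas and 3.89% in null gliomas. Null gliomas 38 and 45, without a raised Hoxa gene, also raised few genes in all (1.7% and 2.04%), while null glioma 41 raised 3.96%.

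Hoxa2, whose product patterns the second branchial arch and the front of the hindbrain, was the most 3' Hoxa gene measured. Its log2 signal was 4.88 and 6.78 in the early biopsy lines, ran from 3.89 through a median of 7.19 to 8.04 in cell lines, from 4.02 through 5.90 to 7.95 in R172H gliomas and from 4.03 through 5.26 to 8.0 in null gliomas, and was 3.82, 4.42, 4.22, 4.23 and 3.93 in cortices. It was present on no cortex and raised on 18 arrays. In each large group some arrays overlapped the cortices and others lay more than 2.0 units above them.

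Hoxa4, a hindbrain and spinal cord patterning gene, had log2 signals of 4.89 and 5.17 in the early biopsy lines and of 3.26, 5.59 and 7.10 (lowest, median and highest) in cell lines. It reached 3.66, 4.78 and 7.81 in R172H gliomas and 3.02, 3.77 and 7.10 in null gliomas, against 3.35, 2.85, 3.40, 3.06 and 3.36 in cortices. Every R172H glioma lay above every cortex, as did 10 of 11 cell lines and 7 of 11 null gliomas, and 13 arrays were raised.

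Hoxa3 and Hoxa5, which pattern pharyngeal organs and the lung and neck, were each measured by several probe sets that did not give the same picture. The probe set used for Hoxa5 (the one whose name ends in _x_at), the brightest on average, was already above the array median in cortex: it gave 8.69 and 10.22 in early biopsy lines, 6.42, 8.71 and 10.70 in cell lines, 6.23, 7.78 and 8.45 in R172H gliomas, 5.84, 6.99 and 8.78 in null gliomas, and 6.04, 6.03, 6.16, 6.48 and 6.18 in cortices. By that set Hoxa5 was raised on 9 arrays. The other Hoxa5 probe set gave 9.43 and 10.62 in early biopsy lines, 3.71, 9.39 and 11.12 in cell lines, 3.86, 8.56 and 9.24 in R172H gliomas and 3.97, 7.62 and 9.83 in null gliomas, and at most 4.27 in cortices. By it Hoxa5 was raised on 27 of 35 arrays, including both early biopsy lines, 10 of 11 cell lines (not 59), 9 R172H gliomas (not 50 and 58) and 6 null gliomas. The probe set used for Hoxa3 gave 6.48 and 7.51 in early biopsy lines, medians of 6.51 in cell lines, 5.96 in R172H gliomas and 5.85 in null gliomas, and 5.62 in cortices. Its only raised array was cell line 55 (8.22). A second Hoxa3 probe set (its name ends in _s_at), with at most 4.17 in cortices, was raised on both early biopsy lines, 9 cell lines, 3 R172H gliomas and 4 null gliomas. The count of arrays with Hoxa3 or Hoxa5 thus rests on the probe set.

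**Figure D2:**
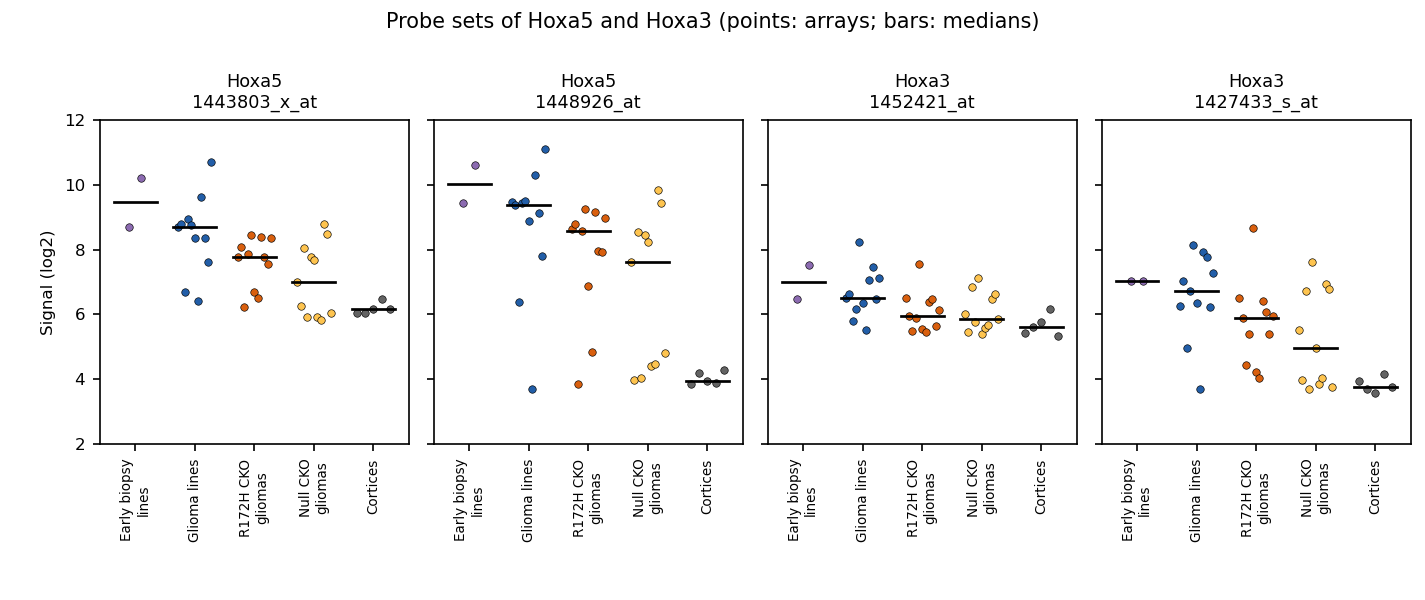
Log2 signal of Hoxa5 and Hoxa3 on each array by the probe set used and by the second one, one point per array and a bar at each group's median, with groups from early biopsy lines on the left to cortices on the right. By the second Hoxa5 probe set the cortices lie at or below 4.27 and 27 of the 35 other arrays are raised, against 9 by the set used.

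The promoters of Hoxa5 and Hoxa9 are printed to show how far the sequence around the start site differs between Hoxa genes that were raised on many arrays. Each window holds the 250 bases before and 50 after the transcription start of the RefSeq annotation on GRCm38.p6, written 5' to 3' on the gene's strand, with CG pairs in capitals, the dinucleotide at which promoter DNA is methylated.
Hoxa5 promoter, chr6:52204538-52204837 (- strand): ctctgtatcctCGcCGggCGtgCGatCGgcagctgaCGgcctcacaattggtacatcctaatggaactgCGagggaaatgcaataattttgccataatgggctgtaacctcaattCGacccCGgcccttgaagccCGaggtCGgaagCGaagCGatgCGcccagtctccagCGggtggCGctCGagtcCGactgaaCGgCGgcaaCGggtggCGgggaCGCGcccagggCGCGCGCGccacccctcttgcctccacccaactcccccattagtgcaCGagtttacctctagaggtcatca
Hoxa9 promoter, chr6:52227321-52227620 (- strand): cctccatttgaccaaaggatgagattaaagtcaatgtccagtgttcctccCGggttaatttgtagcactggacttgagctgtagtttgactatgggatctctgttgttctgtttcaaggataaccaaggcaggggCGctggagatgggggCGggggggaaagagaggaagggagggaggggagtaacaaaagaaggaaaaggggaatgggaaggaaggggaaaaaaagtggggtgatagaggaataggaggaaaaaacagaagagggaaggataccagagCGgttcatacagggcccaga
The Hoxa5 window had 29 CG pairs, more than 87.3% of the 27025 RefSeq promoters of this length, and the Hoxa9 window had 4, more than 31.9% of them. The median over all promoters was 7. A promoter was found for 22 of the 38 Hox genes, 19 of them measured, and these had between 4 and 45 CG pairs with a median of 13.5. Searched on both strands, the motif CCAAT stood in 14 of the 22 Hox windows (63.6%) and 37.9% of all promoters, GGGCGG in 9 (40.9%) and 35.9%, TATAAA in 3 (13.6%) and 14.2%, and TGATNNAT, a motif bound by PBX and HOX proteins together, in 3 (13.6%) and 9.04%. No motif contains another, though matches may overlap in position, and a match says only that the letters are there.

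Hoxa7, a gene of trunk patterning, was present on every array including the cortices. It gave 7.40 and 9.96 in early biopsy lines, 5.58, 7.77 and 10.44 in cell lines, 5.62, 7.93 and 8.96 in R172H gliomas, 5.49, 7.08 and 9.44 in null gliomas, and 5.51, 5.84, 5.56, 6.16 and 5.99 in cortices. It was raised on 16 arrays.

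Hoxa9 and Hoxa10, posterior genes best known for their part in blood progenitors and in leukaemia, had the largest SDs among the probe sets used for Hoxa genes, 2.20 and 2.18 over the 35 arrays. Hoxa9 had log2 signals of 6.03 and 7.54 in the early biopsy lines, 3.29, 7.62 and 9.94 in cell lines, 3.73, 5.76 and 8.63 in R172H gliomas, 3.26, 3.93 and 8.60 in null gliomas, and 3.37, 3.21, 3.59, 3.50 and 3.20 in cortices. All 11 R172H gliomas lay above every cortex, as did 10 cell lines and 7 null gliomas, and Hoxa9 was raised on 19 arrays, the most for any Hox gene by the probe sets used (the second Hoxa5 probe set was raised on 27). Hoxa10 had 7.30 and 5.55 in the early biopsy lines, 3.02, 7.41 and 8.85 in cell lines, 3.04, 3.63 and 8.45 in R172H gliomas, 2.93, 3.24 and 8.14 in null gliomas, and 2.70, 2.95, 3.11, 3.40 and 3.20 in cortices. It was raised on 17 arrays, and the median glioma of either genotype was near cortex while single gliomas reached line levels. In the lines, 11 of the 12 measured blood and lymphoid markers were below the array median on all 11 cell lines and both early biopsy lines, among them Gata1, Mpo and Cd34, and 13 of 16 microglia and macrophage markers were below it on all 11 cell lines. In gliomas the microglia and macrophage list had mean log2 signals of 7.71 to 9.83 in R172H gliomas and 7.93 to 9.78 in null gliomas, against 7.28 to 7.87 in cortices, and its part in the glioma signals was not tested.

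The set of raised Hoxa genes differed from array to array. In the 13 lines Hoxa9 and Hoxa10 were raised together on 9 and neither on 4 (cell lines 51, 57, 59 and 61). In the 22 gliomas both were raised on 7, Hoxa9 alone on 3 (R172H gliomas 46, 58 and 67), Hoxa10 alone on 1 (null glioma 37) and neither on 11. For Hoxa2 and Hoxa9, 7 lines raised both, 1 Hoxa2 without Hoxa9 (cell line 61), 2 Hoxa9 without Hoxa2 (cell line 65 and early biopsy line 66) and 3 neither. Among gliomas 5 raised both, 5 Hoxa2 without Hoxa9 (R172H gliomas 52, 54 and 60, null gliomas 37 and 39) and 5 Hoxa9 without Hoxa2 (R172H gliomas 58, 62, 64 and 67, null glioma 35), and 7 raised neither. By the probe sets used, null glioma 39 raised only Hoxa2 (8.0) and Hoxa4, with Hoxa9 at 3.64. R172H glioma 64 raised Hoxa7, Hoxa9 (8.38) and Hoxa10 (8.29) with Hoxa2 at 4.47. By their second probe sets, null glioma 39 also raised Hoxa3 and Hoxa5, and R172H glioma 64 also raised Hoxa5. Null glioma 43 and cell line 68 raised Hoxa2, Hoxa4, Hoxa5, Hoxa7, Hoxa9 and Hoxa10 by the probe sets used, and cell line 55 raised Hoxa3 besides these. By its second probe set Hoxa3 was raised on each of these last arrays, 43, 55 and 68. R172H glioma 58, one of the gliomas near cortex on the neuron list, still had Hoxa9 at 6.32.

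Beyond Hoxa10, towards the 5' end, no Hoxa gene was raised. Hoxa11, a limb and uterus gene, was present on no array, with its highest signal, 5.21, on cell line 49. Hoxa13, the last gene of the cluster, was present only on R172H glioma 52 (5.79) and was raised on none, its highest cortex being at 4.05.

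**Figure D3:**
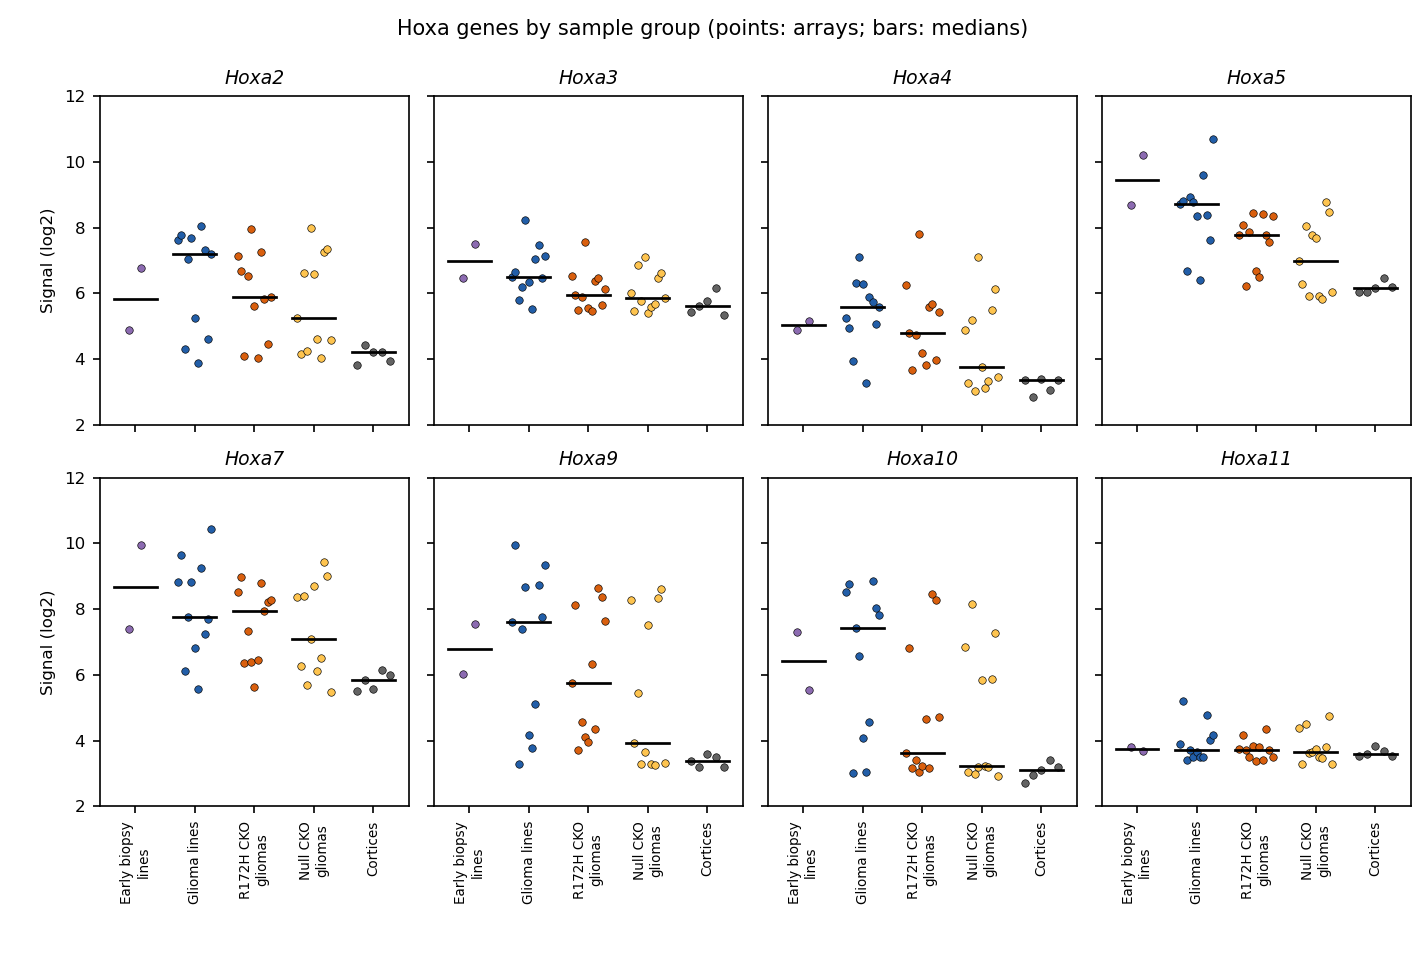
Log2 signal of Hoxa2, Hoxa3, Hoxa4, Hoxa5, Hoxa7, Hoxa9, Hoxa10 and Hoxa11 on each array, one point per array, with groups from early biopsy lines on the left to cortices on the right. Hoxa9 and Hoxa10 run from cortex level to more than 5 log2 units above the highest cortex, and Hoxa11 stays at or below 5.21.

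Group comparisons were made with limma, which fits all genes at once with a shared estimate of the spread, and p-values were adjusted by Benjamini-Hochberg over all 18193 genes. All comparisons with cortex share the same 5 cortices. For the R172H cell lines against cortex, 9 of the 33 Hox genes were higher (background 25.5% of all genes) and 0 were lower (24.3% of all genes). The share higher was thus near that of all genes. The 9 were 7 of the 9 Hoxa genes and Hoxd8 and Hoxd9. By the probe sets used, the largest differences were those of Hoxa9, at 3.52 log2 units (SE 1.09, 95% interval 1.31 to 5.72, adjusted p = 0.00676), and Hoxa10, at 3.36 (SE 1.05, interval 1.23 to 5.48, adjusted p = 0.0074). Hoxa2 differed by 2.30 (SE 0.72, adjusted p = 0.0076), Hoxa5 by 2.28 (SE 0.53, adjusted p = 0.000405), Hoxa7 by 2.20 (SE 0.69, adjusted p = 0.00763), Hoxa4 by 2.19 (SE 0.61, adjusted p = 0.00278) and Hoxa3 by 1.0 (SE 0.34, adjusted p = 0.013). By their most variable probe sets Hoxa5 differed by 4.63 (adjusted p = 0.000211), more than Hoxa9, and Hoxa3 by 2.76 (adjusted p = 0.00073). The median difference was 2.20 over the 9 Hoxa genes, 0.01 over the Hoxb genes, 0.07 over the Hoxc genes, 0.14 over the Hoxd genes and 0.02 over all genes. The calls of these 7 Hoxa genes held in each of the 30 alternative settings run for them, the Cre-positive cortices alone among them.

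For the 22 gliomas against cortex, 4 of the 33 Hox genes were higher (background 22.6% of all genes) and 1 was lower (24.7%). Both shares were below those of all genes. Hoxa2 was higher by 1.70 log2 units (SE 0.66, interval 0.36 to 3.05, adjusted p = 0.0331), Hoxa7 by 1.63 (SE 0.64, adjusted p = 0.0325), Hoxa4 by 1.55 (SE 0.56, adjusted p = 0.0212) and Hoxa5 by 1.16 (SE 0.48, adjusted p = 0.0456). Hoxa9, at 2.29 (SE 1.0, interval 0.26 to 4.31, adjusted p = 0.0576), and Hoxa10, at 1.71 (SE 0.96, interval -0.25 to 3.66, adjusted p = 0.146), did not pass. The Hoxa median was 1.55, against -0.03 over all genes. The gene that was lower, Hoxc6, differed by -0.38 (SE 0.10, adjusted p = 0.00204) and lay below the median on every array. The calls rest on few cortices: without cortex 30, 31, 32, 33 or 34 the number of higher genes was 1, 0, 1, 2 and 1, and with the 3 Cre-positive cortices alone it was 0. Without the gliomas of arrays 38, 45 and 58, which stood near cortex on the neuron list, 5 were higher, and likewise without those of arrays 36, 41 and 50.

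By genotype, the shares of Hox genes called in R172H gliomas against cortex were below those of all genes. Of the 33 Hox genes, 5 were higher (background 21.5%) and 1 was lower (24.3%). These were Hoxa9, by 2.59 (SE 1.09, interval 0.38 to 4.79, adjusted p = 0.0494), Hoxa4 by 1.88 (SE 0.61, adjusted p = 0.0114), Hoxa2 by 1.83 (SE 0.72, adjusted p = 0.0366), Hoxa7 by 1.71 (SE 0.69, adjusted p = 0.0405) and Hoxa5 by 1.43 (SE 0.53, adjusted p = 0.0244), and Hoxc6 was lower by 0.49 (difference -0.49, SE 0.11, adjusted p = 0.000332). Hoxa4 and Hoxa9, the 2 genes with every R172H glioma above every cortex, did what 7.94% of all genes did. Leaving out single arrays lowered the count of higher genes to 1 without cortex 31, to 2 without cortex 30, 32, 33 or 34 or without R172H glioma 46 or 48, and to 3 without R172H glioma 60, 62, 64 or 67; with the Cre-positive cortices alone it was 0. In null gliomas 0 Hox genes passed in either direction by limma (20.5% of all genes were higher and 22.2% lower), with 4 at an unadjusted p under 0.05. For array data the study's methods name an unpaired t-test for Pdgfra alone, and it was run here over all genes. By this methods' t-test 2 Hox genes were higher and 2 lower unadjusted, and 0 higher and 1 lower adjusted. The null gliomas differed from cortex by 1.98 for Hoxa9 (interval -0.22 to 4.19), 1.71 for Hoxa10 (-0.42 to 3.83), 1.58 for Hoxa2 (0.11 to 3.04), 1.55 for Hoxa7 (0.15 to 2.95), 1.23 for Hoxa4 (-0.01 to 2.47) and 0.89 for Hoxa5 (-0.17 to 1.95). Without null glioma 38, 41 or 45 the count of higher genes was 1, without the gliomas of arrays 36, 41 and 50 it was 4, and without those of arrays 38, 45 and 58 it was 3.

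No Hox gene passed the test between the genotypes. R172H gliomas against null gliomas gave 0 Hox genes in either direction by limma (0% of all genes higher and 0.033% lower), 2 at an unadjusted p under 0.05, and by the methods' t-test 0 higher and 2 lower unadjusted and 0 adjusted. The difference was 0.65 for Hoxa4 (interval -0.33 to 1.63), 0.60 for Hoxa9 (-1.14 to 2.35), 0.54 for Hoxa5 (-0.30 to 1.38), 0.25 for Hoxa2 (-0.91 to 1.41), 0.16 for Hoxa7 (-0.95 to 1.27) and 0.00 for Hoxa10 (-1.68 to 1.68). These intervals still hold differences of more than 1 log2 unit for each of the 6 genes, so likeness of the genotypes is not shown.

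For cell lines against R172H gliomas 1 of the 33 Hox genes was higher (background 7.24%) and 0 were lower (6.43%), shares below those of all genes. It was again Hoxc6, by 0.28 (SE 0.09, adjusted p = 0.0258), below the array median throughout, and its call was lost without R172H glioma 56 (adjusted p = 0.0565) or 67 (0.0523) or without cell line 61 (0.0545). Hoxa10 differed by 1.65 (interval -0.03 to 3.33, adjusted p = 0.19), Hoxa9 by 0.93 (-0.81 to 2.67, adjusted p = 0.51), Hoxa5 by 0.85 (0.00 to 1.69, adjusted p = 0.178) and Hoxa3 by 0.57 (0.03 to 1.11, adjusted p = 0.154). The study describes the cell lines and R172H gliomas as paired, but the sample labels name no pairs, so the fit is unpaired. All 16 microglia and macrophage markers and all 10 endothelial markers were lower in cell lines than in R172H gliomas, by list medians of -4.01 and -1.65, and their part in the Hox differences was not tested. For the 2 early biopsy lines against the 11 cell lines, 0 Hox genes passed in either direction by limma (0% of all genes), 0 did at an unadjusted p under 0.05 or by the methods' t-test, and the interval for Hoxa5, at 1.0, ran from -0.51 to 2.52.

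**Figure D4:**
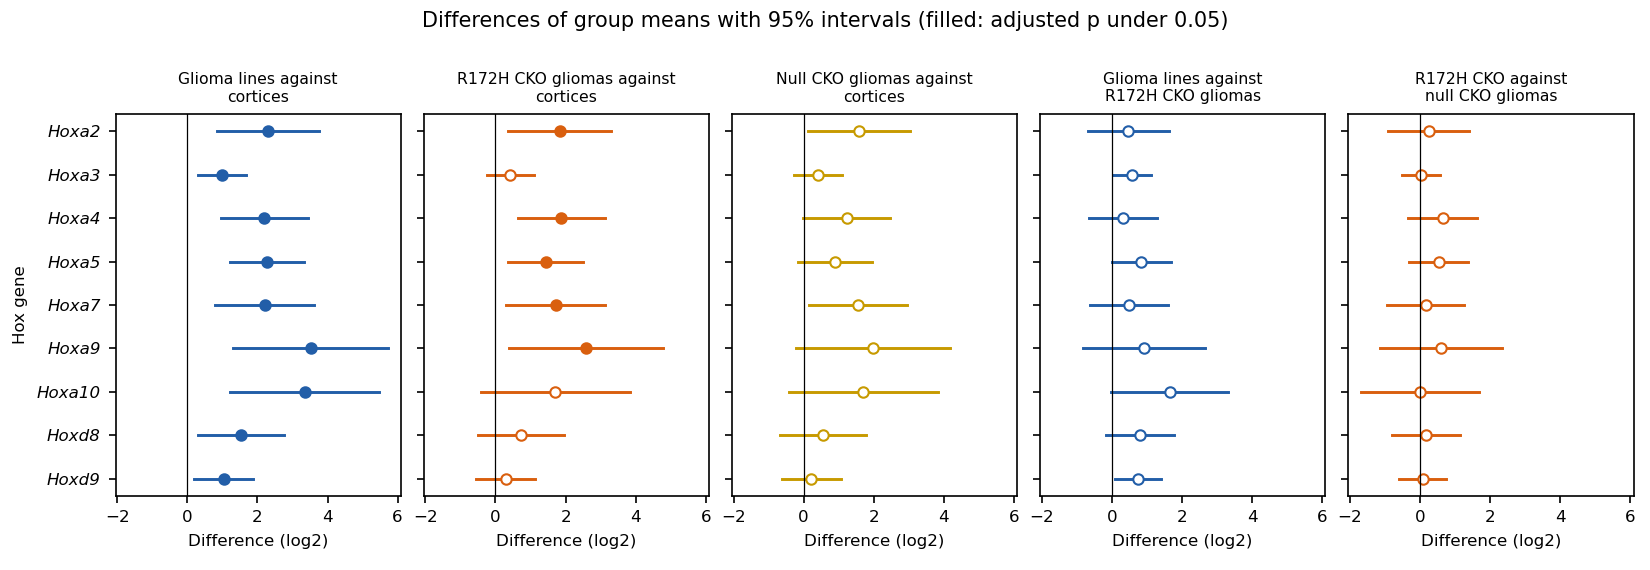
Log2 differences with 95% intervals (limma) for Hoxa2, Hoxa3, Hoxa4, Hoxa5, Hoxa7, Hoxa9, Hoxa10, Hoxd8 and Hoxd9 in 5 comparisons, filled where the adjusted p was under 0.05. In cell lines against cortex all 9 genes are filled, from 1.0 for Hoxa3 to 3.52 for Hoxa9, and in R172H gliomas against null gliomas none is.

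Hoxd8 and Hoxd9 are neighbours in the cluster that pattern the trunk and proximal limb. By the probe sets used, they were the only Hoxd genes raised on any array or called in any comparison. Hoxd8 had 5.48 and 4.69 in early biopsy lines, 4.11, 5.28 and 9.15 in cell lines, 4.02, 4.20 and 6.86 in R172H gliomas, 3.95, 4.13 and 6.47 in null gliomas, and 3.85, 3.90, 3.97, 4.44 and 4.06 in cortices. Hoxd9 had 5.65 and 5.35 in early biopsy lines, 5.29, 5.55 and 9.08 in cell lines, 4.97, 5.45 and 6.74 in R172H gliomas, 5.05, 5.31 and 6.45 in null gliomas, and 5.33, 4.99, 5.0, 5.32 and 5.33 in cortices. Cell lines 47 (Hoxd8 7.82, Hoxd9 8.49) and 49 (9.15, 9.08) were raised for both, and R172H glioma 48 and null glioma 35 for Hoxd8. The same 2 lines had the antisense transcript Hoxd3os1 at 6.34 and 6.19, where no cortex passed 3.45. Against cortex the cell lines differed by 1.54 for Hoxd8 (SE 0.60, adjusted p = 0.0321) and 1.04 for Hoxd9 (SE 0.42, adjusted p = 0.0353). Hoxd8 lost its call without cell line 47 (1.32, adjusted p = 0.0594) or 49 (1.19, 0.0572) or without cortex 30 (0.0632), 31 (0.0613), 32 (0.058) or 34 (0.0541). Hoxd9 lost its call without cell line 47 (0.82, adjusted p = 0.065) or 49 (0.76, 0.0552) or without any 1 of the 5 cortices (0.051 to 0.0738). With the Cre-positive cortices alone neither passed. The other 6 Hoxd genes were present on no array by the probe sets used. Below the array median, Hoxd3 (4.15 and 4.33) and Hoxd10 (3.83 and 3.74) were also highest in cell lines 47 and 49. A second Hoxd13 probe set read 6.54 in cell line 49. The Hoxd9 promoter is shown because this gene and Hoxa9 are paralogues that were raised on 2 and 19 arrays.
Hoxd9 promoter, chr2:74697513-74697812 (+ strand): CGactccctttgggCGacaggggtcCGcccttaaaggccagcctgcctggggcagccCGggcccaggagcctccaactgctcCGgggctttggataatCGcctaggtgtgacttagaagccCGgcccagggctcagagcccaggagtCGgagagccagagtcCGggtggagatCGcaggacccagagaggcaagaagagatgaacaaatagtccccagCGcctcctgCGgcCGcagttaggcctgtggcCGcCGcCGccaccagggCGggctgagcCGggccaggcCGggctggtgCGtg
It had 20 CG pairs, more than 73.2% of promoters. Of the group 9 paralogues, Hoxb9 and Hoxc9 were raised on 0 arrays, and Hoxc9, though present on all 40, had no call in any comparison, with medians of 6.13 in cell lines, 5.95 in R172H gliomas, 6.12 in null gliomas and 6.19 in cortices.

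The Hoxb genes were raised in a single tumor. In null glioma 41 the log2 signals of Hoxb2, Hoxb3, Hoxb4, Hoxb5 and Hoxb6, which pattern hindbrain and cervical cord, were 10.54, 8.93, 10.42, 10.18 and 9.59. On the other 39 arrays the highest were 4.74, 5.28, 5.35, 3.49 and 3.90, so no other array came within 3 log2 units of this glioma for any of the 5. By the probe sets used, Hoxb1, Hoxb7, Hoxb9 and Hoxb13 were present on no array. A probe set shared by Hoxb8 and Hoxb7, which gave no gene value, read 9.08 in null glioma 41, its highest array. Raised in null glioma 41 and nowhere else were 15.2% of the Hox genes and 0.517% of all genes, and it raised no Hoxa gene. The Hoxb4 promoter is shown as one of the block.
Hoxb4 promoter, chr11:96318017-96318316 (+ strand): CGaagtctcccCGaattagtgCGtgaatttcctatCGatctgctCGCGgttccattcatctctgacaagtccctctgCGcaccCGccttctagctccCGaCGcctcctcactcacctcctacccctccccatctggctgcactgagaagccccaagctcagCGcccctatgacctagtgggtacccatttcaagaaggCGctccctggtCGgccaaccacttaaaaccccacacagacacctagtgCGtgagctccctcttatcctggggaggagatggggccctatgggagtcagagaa
It had 14 CG pairs, more than 63.1% of promoters, and none of the 4 motifs. Some transcripts of the same chromosomal neighbourhood were also at their highest there, namely the antisense transcript Hoxb5os at 8.01 (at most 4.88 in cortices and 5.45 on other arrays), Skap1, which lies beside the cluster, at 7.33 (4.95 and 5.11), and Snx11 at 9.69 (7.73 and 8.76). Other genes flanking Hoxb were not: Cbx1 was at 11.02 but reached 11.46 on null glioma 36, and Nfe2l1 was at 9.77, below the lowest cortex at 10.31. Calcoco2 was at 3.02, the glioma median. Its probe set read at most 3.38 on any array, below the array median throughout, so it cannot show whether that gene changed. Null glioma 41 also had the highest Pax6 signal, 10.95, and the highest Mab21l2 signal, 9.85, against at most 7.02 elsewhere. Its oligodendrocyte progenitor list was low at 8.66. Null glioma 36, also low on that list, came next for Mab21l2 (7.02), Snx11 (8.76) and Skap1 (5.11). Fgf8 was highest in null glioma 36 (7.91), followed by null glioma 41 (6.86). With 1 tumor there is no test of these values, and no Hoxb gene had a call in any group comparison.

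Of the Hoxc genes, Hoxc8, a thoracic patterning gene, was the one that was raised. Its log2 signal was 10.77 in R172H glioma 52 and 8.03 in cell line 53, and these were the only arrays on which it was present. Both also had the gene Hoxa2 raised. Cell line 53 had the highest Irx5 (9.85), Egr2 (10.94) and Pdgfra (13.81) signals of all arrays. R172H glioma 52 came next for Irx5 (9.32) and also had Pdgfra at 13.81, with Egr2 at 8.63. The study describes lines paired with gliomas, and the labels do not say whether these arrays share a tumor. Hoxc4 had 4.73 and 4.56 in early biopsy lines, 3.89 to 5.92 in cell lines, 3.82 to 5.52 in R172H gliomas, 4.01 to 4.66 in null gliomas and 4.02 to 4.31 in cortices; it was present on 3 arrays and raised on none. Hoxc6, which carried the calls at small differences, had 4.45 to 4.74 in early biopsy lines, 4.36 to 4.89 in cell lines, 3.86 to 4.77 in R172H gliomas, 4.33 to 4.79 in null gliomas and 4.68 to 5.01 in cortices. Hoxc5, Hoxc6, Hoxc10 and Hoxc13 were present on no array.

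**Figure D5:**
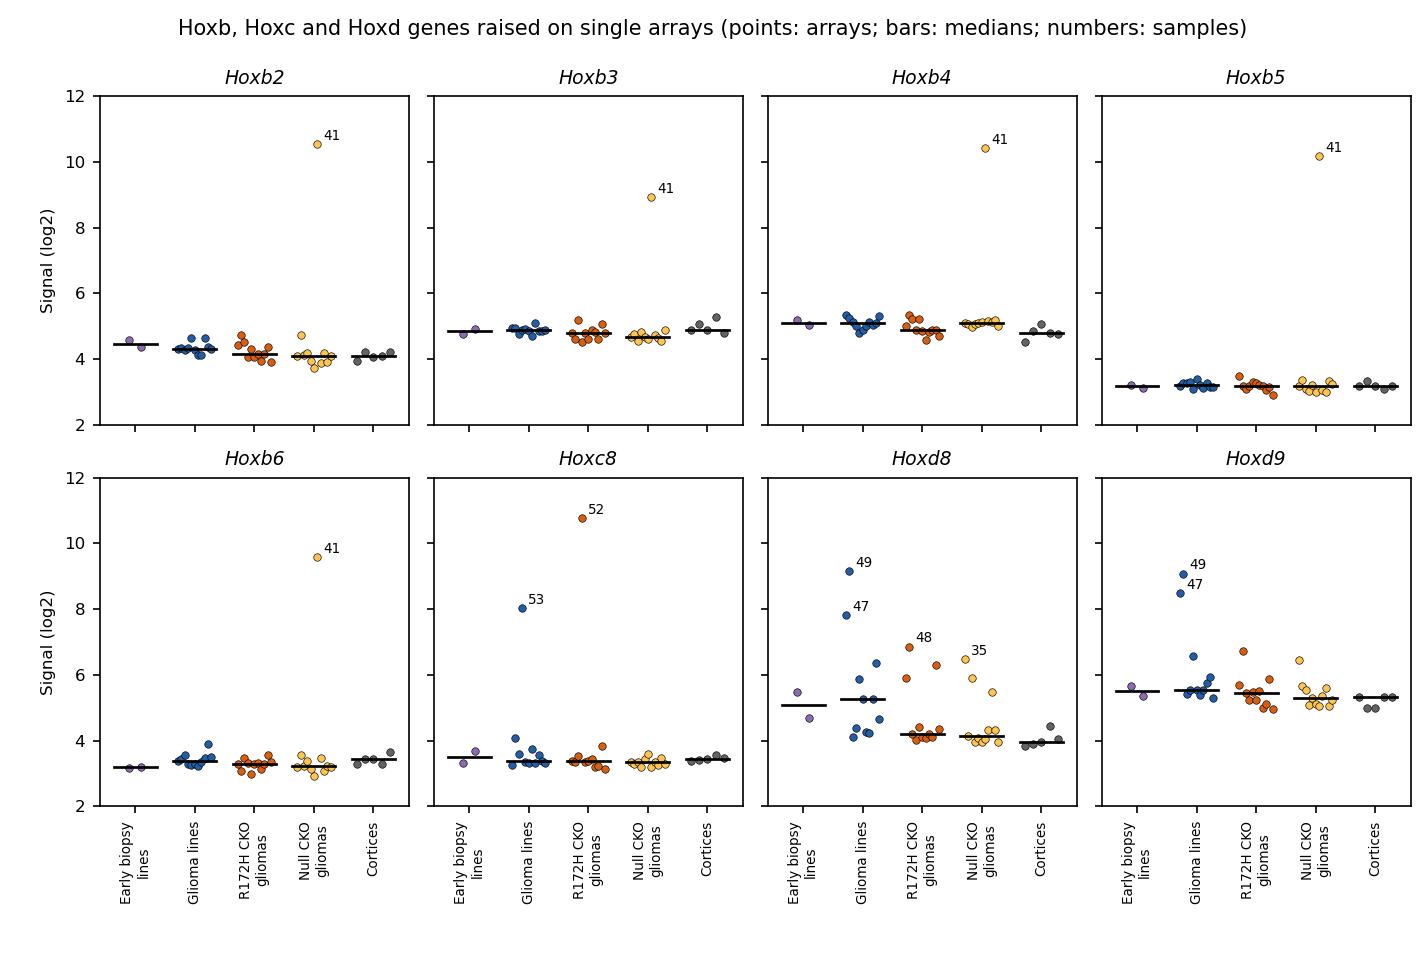
Log2 signal of the Hoxb, Hoxc and Hoxd genes that were raised on any array, one point per array, with groups from early biopsy lines on the left to cortices on the right. Single arrays carry the signal: null glioma 41 for Hoxb2 to Hoxb6 (8.93 to 10.54), R172H glioma 52 and cell line 53 for Hoxc8, and cell lines 47 and 49 for Hoxd9.

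Genes that work with or upon the Hox clusters were described as lists, each count over the members measured and each difference in log2 units against cortex. Of all genes, 25.5% were higher and 24.3% lower in cell lines, and 22.6% were higher and 24.7% lower in gliomas. Of 8 TALE homeodomain genes, whose products bind DNA together with HOX proteins, 2 were higher and 0 lower in cell lines, and 2 were higher and 1 lower in gliomas, so the share higher was near that of all genes. Meis1 was higher by 2.64 in cell lines (adjusted p = 0.000681) and by 1.55 in gliomas (adjusted p = 0.0285), Pknox1 was higher by 1.45 in cell lines and by 0.997 in gliomas, and Pbx2 differed by -0.47 in gliomas. Of 22 Polycomb genes, whose products silence Hox clusters, 13 were higher and 4 lower in both comparisons. Ezh2, the methyltransferase of the complex, was higher by 5.16 in cell lines and 4.66 in gliomas, with every array above every cortex. Of all 18193 genes, 2936 had every cell line above every cortex, and 712 had every glioma above every cortex. The chromodomain subunits went both ways, Cbx2 by 2.13 in cell lines and 1.35 in gliomas, Cbx6 by -1.96 and -1.66, and Cbx7 by -1.85 and -1.72. Of 12 Trithorax and demethylase genes, which counteract Polycomb, 7 were higher and 1 lower in cell lines and 7 higher and 2 lower in gliomas. Ash2l and Wdr5, core subunits of the methyltransferase complexes, were higher by 1.80 and 1.22 in cell lines and by 1.4 and 1.12 in gliomas, and the demethylase gene Kdm6b by 1.37 and 1.09. The medians over the lists were 0.67 and 0.48 for Polycomb and 0.66 and 0.70 for Trithorax, in cell lines and in gliomas, beside 0.02 and -0.03 over all genes. On the same arrays all 11 measured cell cycle genes were higher in both comparisons, with list medians of 5.98 and 5.75 and Top2a at 6.73 and 6.20; the part of proliferation in the Polycomb and Hox values was not tested.

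Retinoic acid induces 3' Hox genes in the embryo, and of its 16 measured pathway genes 1 was higher and 6 lower in cell lines and 1 higher and 3 lower in gliomas, beside the same all-gene shares as above (25.5% and 24.3%, 22.6% and 24.7%). Among the enzymes that make it, Aldh1a1 differed by -4.06 in cell lines (adjusted p = 0.000909), Aldh1a2 by -2.54 in cell lines and -1.73 in gliomas, and Aldh1a3 by 2.16 in gliomas (adjusted p = 0.0371). Dhrs3, which limits retinoic acid, differed by -2.15 in cell lines (adjusted p = 4.07e-07) and -0.98 in gliomas. Of 6 Cdx and ParaHox genes, relatives of the Hox genes, 0 were higher and 1 lower in cell lines and 1 higher and 1 lower in gliomas, namely Cdx2 at -0.19 and -0.26, and Gsx1 at 1.58 in gliomas (adjusted p = 0.00417).

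Of 13 hindbrain and isthmus genes, which share the Hox territory or its front border, 6 were higher and 0 lower in cell lines and 5 higher and 1 lower in gliomas. Irx5 was higher by 3.87 in cell lines and 2.83 in gliomas, Irx3 by 3.08 and 1.70, En1 by 2.36 in cell lines and En2 by 1.90 in gliomas (adjusted p = 0.00828). Of 16 forebrain identity genes, 1 was higher and 7 lower in cell lines and 0 higher and 7 lower in gliomas. For both lists the all-gene shares higher and lower were again 25.5% and 24.3% in cell lines and 22.6% and 24.7% in gliomas. Tbr1, a gene of cortical neurons, differed by -4.39 and -3.60, Dlx1 by -2.37 and -2.71, Zic1 by -3.84 in cell lines and Otx2 by -2.0 in gliomas. All 13 mature neuron markers were lower in both comparisons, and their part in these differences was not tested.

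Of 20 genes that flank the 4 clusters, 5 were higher and 4 lower in cell lines and 2 higher and 4 lower in gliomas, beside all-gene shares of 25.5% and 24.3% in cell lines and 22.6% and 24.7% in gliomas. Skap2, which lies beside the 3' end of Hoxa, was higher by 2.75 in cell lines (SE 0.64, adjusted p = 0.000463) and differed by 1.23 in gliomas (adjusted p = 0.0838). Every cell line lay above every cortex for Skap2, as for 2936 of all 18193 genes. Hnrnpa1, beside Hoxc, was higher by 1.74 in cell lines and 1.33 in gliomas, and Snx10, beside Skap2, differed by -1.50 in cell lines. Nfe2l1, near Hoxb, and Atf2, near Hoxd, differed by -1.12 and -1.02 in gliomas. The 3 measured noncoding transcripts of the clusters, Hoxa11os, Hoxb5os and Hoxd3os1, had no call in either comparison.

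The genes whose signal was most like that of Hoxa9 over the 35 glioma and line arrays, outside the Hox clusters, were Mtg1 (Pearson r = 0.69), Six3 (0.62), Unc50 (0.62), Gatd1 (0.61) and Nudt4 (0.61). These arrays pool tumors and cultured lines that share group differences, and the coefficients are given as a description.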

How the data were processed

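RNA from 40 samples was hybridised to Affymetrix mouse genome arrays, 1 sample an array. The values used are the log2 signals the authors deposited after background correction, log2 transformation and quantile normalization over all arrays, so a value near background is a limit of detection more than a level. Of 45101 probe sets, 64 controls were left out, 34945 named 1 gene (34884 matched RefSeq), 932 named several and 9160 were unnamed by the platform annotation; only the first kind gave genes. A gene took its brightest probe set over all arrays. Groups came from the labels. The 5 groups were fitted in 1 model with limma 3.58.1 in R 4.3.3, and calls used an adjusted p under 0.05 over 18193 genes. Python 3.11.15, pandas 2.3.3, numpy 2.4.6, scipy 1.17.1 and matplotlib 3.10.9 did the rest. Values are given for each Hox gene called or present on any array; of each pathway list the 3 largest called differences are named, further genes where a result turns on them, and the 5 genes most correlated with the most variable member. The members and lists were chosen with earlier results of these data known. Neither p53 itself nor the authors' own comparisons were analysed here. Scripts were tested on simulated data. No count or read depth exists for arrays; the number of arrays limits the precision. Alternatives covered probe set choice, a filter on dim genes, cyclic loess, array quality weights, trend and robust moderation, the methods' t-test, the cortices used, and leaving out single arrays.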

Additional observations from a re-analysis of the deposited data

Results flagged for a closer look

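These signals belong to probe sets that gave no gene value above, either because a brighter probe set of the gene was used or because the probe set names more than 1 gene, and each passed the highest cortex and the array median on at least 1 glioma or line. In null glioma 41 the second Hoxb3 probe set read 9.93, the second Hoxb4 probe set 8.53 and a probe set shared by Hoxb8 and Hoxb7 9.08, all on the tumor with the raised Hoxb block. In cell line 49 the second probe sets read 8.31 for Hoxd8, 6.54 for Hoxd13 and 7.29 for Hoxa9. The second Hoxa5 probe set reached 11.12 in cell line 68, the second Hoxa3 probe set 8.68 in R172H glioma 54 and the second Hoxa10 probe set 5.97 in R172H glioma 64. Of these, Hoxd13 and Hoxb7 are genes whose own chosen probe set was present on no array, and Hoxb8 had no probe set of its own. Dixon's outlier test on the 5 cortices (critical value 0.71), run for each of the 33 genes, found 0 outliers. With 5 samples that test finds only large gaps. The highest cortex sets the cut-off for raised, and for several genes it was Cre-negative cortex 33. Examples are Hoxa3 (6.17), Hoxa5 (6.48), Hoxa7 (6.16) and Hoxa10 (3.40). Cortex 31 was highest for Hoxa2 (4.42), and cortex 32 for Hoxa4 (3.40) and Hoxa9 (3.59).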

How the results depend on the processing

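No paired analysis was possible because the sample labels name no pairs of line and glioma; the replicate numbers follow accession order only. No value changed direction. Numbers of Hox genes called are given as higher or lower. With the Cre-positive cortices alone, 0 were higher in gliomas and 0 in R172H gliomas. The mean of all probe sets gave 2 lower in R172H gliomas, 1 lower in null gliomas and 0 higher in lines than in R172H gliomas. Probe sets not ending in _x_at or _s_at, or the most variable probe set, gave 1 higher in null gliomas. A filter on dim genes, which kept 10 of the Hox genes, gave 0 lower in gliomas and R172H gliomas and 0 higher in lines than in R172H gliomas. Fitting only the groups compared gave 1 lower in null gliomas and 0 higher in lines than in R172H gliomas. Cyclic loess gave 1 lower in null gliomas, 0 higher in lines than in R172H gliomas and 2 lower in lines than in cortex. Array quality weights gave 4 lower in gliomas, 3 in R172H gliomas, 2 in null gliomas and 3 in lines, and 6 higher in null gliomas. Trend and robust moderation gave 1 lower in lines. The methods' t-test, unadjusted, gave 2 lower in gliomas, 2 higher and 2 lower in null gliomas, 2 lower in R172H than in null gliomas, 2 higher in lines than in R172H gliomas and 3 lower in lines than in cortex; adjusted, it gave 2 lower in gliomas, 1 lower in null gliomas and 0 higher in lines than in R172H gliomas. A threshold of 0.1 gave 2 lower in gliomas, 2 higher and 2 lower in null gliomas and 1 lower in lines.

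Chosen after seeing the data were the most variable probe set and leaving out gliomas. Without those of arrays 36, 41 and 50, 4 were lower in gliomas, 3 in R172H gliomas and 3 in null gliomas, and 4 were higher in null gliomas; without those of arrays 38, 45 and 58, 3 were higher and 2 lower in null gliomas. With 1 array left out at a time the counts ran from 0 to 6 higher and 1 to 2 lower in gliomas, 1 to 5 higher in R172H gliomas, 0 to 1 higher and 0 to 2 lower in null gliomas, 0 to 1 higher in lines than in R172H gliomas, and 7 to 9 higher and 0 to 1 lower in lines than in cortex. The lower calls that came and went did so without cortices 30, 33 and 34, null gliomas 38, 41, 42 and 45, R172H gliomas 48, 50 and 52, and cell lines 49, 53, 59 and 61. The cause was not tested.

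Hox genes present per array averaged 7.5 in early biopsy lines, 8.2 in cell lines, 7.0 in R172H gliomas, 6.6 in null gliomas and 4.4 in cortices. Requiring 1 unit more gave 4.5, 5.4, 3.8, 3.5 and 0.4, and the median of the gene-level values gave 4.0, 4.4, 2.5, 2.5 and 0.0. The mean of all probe sets gave 6.5 in early biopsy lines and 2.4 in cortices. For Hoxa5, the most variable probe set moved the difference against cortex to 4.63 in lines (adjusted p = 0.000211), 3.69 in R172H gliomas (0.00293) and 3.19 in gliomas (0.00453), and Hoxa3 moved to 2.76 in lines (0.00073). The Hoxa5 call in gliomas was lost in 19 of 41 settings, that of Hoxa9 in R172H gliomas in 15 of 30. Signals near background, as those of Hoxc6, limit what small differences show.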
